A study of Mus musculus with 8 samples.

Results

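Transcript levels of 8 transcription factors of the naive pluripotency network, Klf2, Klf4, Klf5, Esrrb, Tbx3, Tcfcp2l1 (now called Tfcp2l1), Nr5a2 and Zfp42 (Rex1), were followed across 8 mouse RNA-seq libraries. The members were chosen by name and matched by symbol to the GENCODE annotation of NCBIM37, and all 8 were found once among the 37620 genes of the files. The cultures were mouse embryonic stem cells (mESCs) in serum-containing medium without feeder cells, and the labels name no LIF for any of them. The 2i library was from R1 mESCs on day 5 with CHIR99021, an inhibitor of GSK3, at 3 µM and PD0325901, an inhibitor of MEK, at 1 µM. The 2iJ library, also R1 on day 5, had a JAK inhibitor at 2 µM in addition. The 3 2iJ+B-A libraries, R1 on days 2, 5 and 11, had these 3 agents with BMP4 at 10 ng/ml and an ALK5 inhibitor at 10 µM, which blocks Activin and Nodal signalling. The sorted library held GFP-positive cells of a CDX2-GFP reporter line taken from 2iJ+B-A on day 2. The 2 Meso libraries were mesoderm progenitors that R1 cells form in embryoid bodies with BMP4, Activin A and Wnt3a, before (day 3) and a day after (day 4) an inhibitor of Wnt secretion, in a different medium, whose listed components do not include serum.

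Naive pluripotency is the state of the early epiblast and of mESCs in 2i. It is held by transcription factors that activate each other and share targets with Oct4, Sox2 and Nanog. Several of the 8 factors can substitute for one another when overexpressed, and they are tied to separate signals. LIF acts through JAK and STAT3 on Klf4 and Tcfcp2l1, GSK3 inhibition relieves repression by TCF3 at Esrrb and Tcfcp2l1, and MEK inhibition stabilises the Klf2 protein. Klf5 and Tcfcp2l1 are also made in the trophectoderm (TE), the outer layer of the blastocyst, and Tbx3 is used in mesoderm and limb as well.

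Values are CPM, a gene's share of the reverse-strand gene counts of its library on the usual per-million scale. These counts totalled 19810855 in the sorted library and 24532587 to 31453888 in the other 7. The sorted library stood apart. It had 29.7% unmapped read pairs and 27.8% of uniquely aligned pairs outside annotated exons, against 2.17% to 3.85% and 7.83% to 13.2% in the others, so cell line, sorting and library cannot be told apart in any difference that involves it. Days of a group were its only samples, and nothing in the labels says that they came from separate cultures, so p-values measure only the spread between these samples. In bulk RNA, fewer cells that express a gene and less RNA per cell cannot be told apart. Markers followed the labels in part. Cdx2 was at 234 CPM in the sorted library, against 15.0 to 30.1 in 2iJ+B-A and 3.16 and 4.12 in 2i and 2iJ. Meso had 40.2 CPM of Cdx2 on day 3, above all of 2iJ+B-A, and 17.25 on day 4. The primitive streak genes T, Mixl1 and Mesp1 were at 181 to 547 CPM in the day 3 Meso library and at 2.10 to 6.36 on day 4, where Kdr and Pdgfra, receptors of later mesoderm, were at 305 and 239.6 CPM.

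The sequences just before the annotated start of 4 of the genes are shown because they are contrasted in the mESC data, Klf4 with its nearest member Tbx3 and Klf5 with its nearest member Tcfcp2l1. Each is 250 bases of NCBIM37, read on the gene's strand from 5′ to 3′ and ending at the base before the outermost start in GENCODE. Klf4 is at chr4:55545348-55545597 (minus strand), Tbx3 at chr5:120120428-120120677, Klf5 at chr14:99697660-99697909 and Tcfcp2l1 at chr1:120524272-120524521 (all plus strand). Capitals mark matches on either strand to the KLF core GGGNGNGG and to the BMP-SMAD box GGCGCC.
Klf4: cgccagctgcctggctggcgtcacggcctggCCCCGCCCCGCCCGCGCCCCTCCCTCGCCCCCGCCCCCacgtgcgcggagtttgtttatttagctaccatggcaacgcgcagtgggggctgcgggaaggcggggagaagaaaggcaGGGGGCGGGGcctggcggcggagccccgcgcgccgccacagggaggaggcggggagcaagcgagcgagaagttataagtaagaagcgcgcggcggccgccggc
Tbx3: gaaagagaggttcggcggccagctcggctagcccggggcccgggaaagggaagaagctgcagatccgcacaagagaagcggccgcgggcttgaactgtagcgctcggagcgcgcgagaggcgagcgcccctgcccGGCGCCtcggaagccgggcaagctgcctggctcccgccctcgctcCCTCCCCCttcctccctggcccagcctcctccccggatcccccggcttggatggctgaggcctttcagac
Klf5: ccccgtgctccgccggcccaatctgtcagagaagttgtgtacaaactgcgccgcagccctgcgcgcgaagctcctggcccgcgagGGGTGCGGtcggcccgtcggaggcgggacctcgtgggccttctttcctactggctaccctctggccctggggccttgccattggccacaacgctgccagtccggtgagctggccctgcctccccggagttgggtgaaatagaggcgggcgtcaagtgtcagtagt
Tcfcp2l1: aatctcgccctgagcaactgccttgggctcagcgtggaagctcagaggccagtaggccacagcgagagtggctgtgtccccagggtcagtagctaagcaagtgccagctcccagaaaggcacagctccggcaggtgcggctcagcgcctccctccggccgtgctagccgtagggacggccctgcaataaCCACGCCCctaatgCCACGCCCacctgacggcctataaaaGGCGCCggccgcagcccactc

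The KLF core was present in 7 of the 8 windows, Nr5a2 being without it, and in 50.7% of the same windows of 22337 protein-coding genes, so it is a common string. It was matched 9 times, with overlaps, in the Klf4 window and once in that of Klf5. The box GGCGCC was in 2 of the 8, Tbx3 and Tcfcp2l1, and in 11.1% of all windows. A STAT string, TTCNNNGAA, was found before Esrrb alone among the members (6.83% of all windows), and the octamer ATGCAAA before Zfp42 alone (3.93%). The strings AAGGTCA, which ESRRB and NR5A2 bind, and CTTTGA, of the TCF factors, matched none of the 8 and stood in 3.40% and 13.4% of all windows. These matches describe the letters of the window and not binding.

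**Figure D1:**
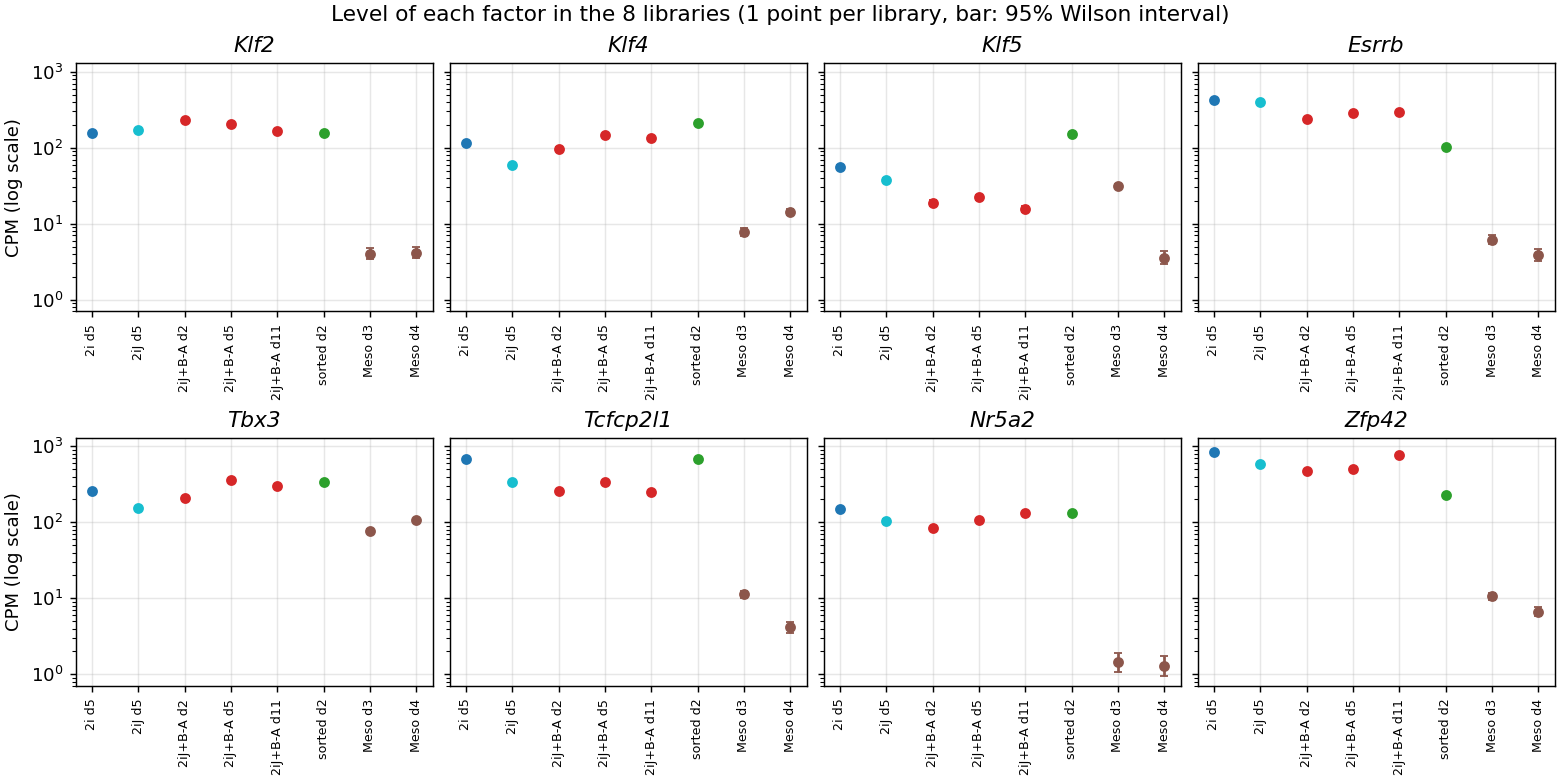
Level of each factor in CPM (log axis) in the 8 libraries, 1 point per library with its 95% Wilson interval, coloured by group (d, day). In the Meso libraries 6 of the factors sit under 15 CPM in both and Tbx3 at 77.9 and 106 CPM, while Klf5 is at 31.8 CPM on day 3 and 3.59 CPM on day 4.

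The 3 Krüppel-like factors, zinc finger proteins that bind GC-rich boxes, had unlike patterns. Klf2 (chr8:74842932-74845555, plus strand) was the steadiest of the 8 factors over the 6 mESC libraries. It had 157 CPM in 2i, 172 in 2iJ, 235, 203.5 and 165 in 2iJ+B-A on days 2, 5 and 11, 157 in the sorted cells, and 4.04 and 4.17 in Meso on days 3 and 4. The 6 mESC libraries thus lay within 1.50-fold of each other and the 2iJ+B-A values enclosed the 2iJ value, while both Meso libraries were far below.

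Klf4 (chr4:55540013-55545347, minus strand), one of the original reprogramming factors, was lowest in 2iJ among the mESC cultures. Its values were 115 CPM in 2i, 58.6 in 2iJ, 97.5, 148 and 134 in 2iJ+B-A on days 2, 5 and 11, 209 in the sorted cells, and 7.85 and 14.2 in Meso on days 3 and 4. All 3 2iJ+B-A libraries were above 2iJ, and 2i fell among them.

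Klf5 (chr14:99697910-99712624, plus strand), which the blastocyst needs for both the TE and the inner cell mass, had the widest range in mESCs. From lowest to highest it was 9.97-fold over the 6 libraries with the sorted one, and 3.63-fold over the 5 unsorted ones. Klf5 had 56.0 CPM in 2i, 37.5 in 2iJ, 18.9, 22.3 and 15.4 in 2iJ+B-A on days 2, 5 and 11, and 154 in the sorted cells. Meso had 31.8 CPM on day 3, above all 3 2iJ+B-A libraries, and 3.59 on day 4, below every other library.

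The nuclear receptors Esrrb and Nr5a2 bind related sequences. Esrrb (chr12:87702067-87862578, plus strand), an orphan receptor downstream of GSK3 inhibition, had 423 CPM in 2i, 400.0 in 2iJ, 239.6, 286 and 296 in 2iJ+B-A on days 2, 5 and 11, 101 in the sorted cells, and 6.20 and 3.91 in Meso. The values of 2i and 2iJ were near each other, all 3 of 2iJ+B-A were below both, and the sorted library was lower still. Nr5a2 (chr1:138740161-138857004, minus strand), also called Lrh1, an activator of Pou5f1, had 149 CPM in 2i, 105 in 2iJ, 83.6, 107 and 132 in 2iJ+B-A, 132 in the sorted cells, and 1.43 and 1.29 in Meso. Its 2iJ+B-A values enclosed that of 2iJ, all were under 2i, and Meso was nearly empty of it, at 45 and 40 counts.

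Tbx3 (chr5:120120678-120134733, plus strand), a T-box repressor and activator, had 256 CPM in 2i, 154 in 2iJ, 209.8, 364 and 298 in 2iJ+B-A on days 2, 5 and 11, 337 in the sorted cells, and 77.9 and 106 in Meso. Like Klf4 it was lowest in 2iJ among the mESC cultures, and both Meso libraries were below that value. One exon overlaps a gene model on the other strand, Gm2301, which strand-specific counting keeps apart.

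Tcfcp2l1 (chr1:120524522-120581744, plus strand), a CP2-family factor and target of STAT3, had 687 CPM in 2i, 344 in 2iJ, 262, 334 and 251 in 2iJ+B-A, 672 in the sorted cells, and 11.3 and 4.13 in Meso. The 2i and sorted libraries were about equally high and the 4 others lay together at lower values. Exons of Tcfcp2l1 overlap a gene model on the same strand, U1, which strand-specific counting does not keep apart. Zfp42 (chr8:44380422-44392363, minus strand), a zinc finger gene that arose from Yy1 and is widely used to mark naive cells, had 835 CPM in 2i, 589 in 2iJ, 468, 497 and 765 in 2iJ+B-A, 231 in the sorted cells, and 10.6 and 6.69 in Meso. Its 2iJ+B-A values enclosed that of 2iJ, and the sorted library was the lowest of the 6 mESC libraries.

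Divided by annotated exon length, which allows levels of different genes to be compared, Zfp42 ranked first in all 6 mESC libraries, at 129 to 464 CPM per kilobase. Klf2 was second in the 5 unsorted ones, at 85.1 to 127 CPM per kilobase, and Klf5 was last in the 3 2iJ+B-A libraries, at 8.96 to 13.0, and in 2i, at 32.5. In the sorted cells Klf5 was second, at 89.3 CPM per kilobase, beside Klf2 at 84.8, and Esrrb was last, at 16.7. In Meso, Klf5 led on day 3 with 18.5 CPM per kilobase and Tbx3 on day 4 with 19.8. The length of Klf5 in this annotation, 1721 bases, sets its place in these orders. In 2iJ+B-A the mean CPM per kilobase fell from Zfp42 (320.4) and Klf2 (109) through Tbx3 (54.2), Esrrb (45.3), Klf4 (41.4), Tcfcp2l1 (30.5) and Nr5a2 (28.0) to Klf5 (10.98). The ranges over the 3 days overlapped for Tbx3, Esrrb and Klf4 (39.1 to 67.9, 39.6 to 48.9 and 31.9 to 48.3), and again for Tcfcp2l1 and Nr5a2 (27.1 to 36.1 and 21.8 to 34.4), and the lowest day of Klf4 lay under the highest days of Tcfcp2l1 and Nr5a2, so the order from Tbx3 to Nr5a2 is only partly distinguished from the spread.

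**Figure D2:**
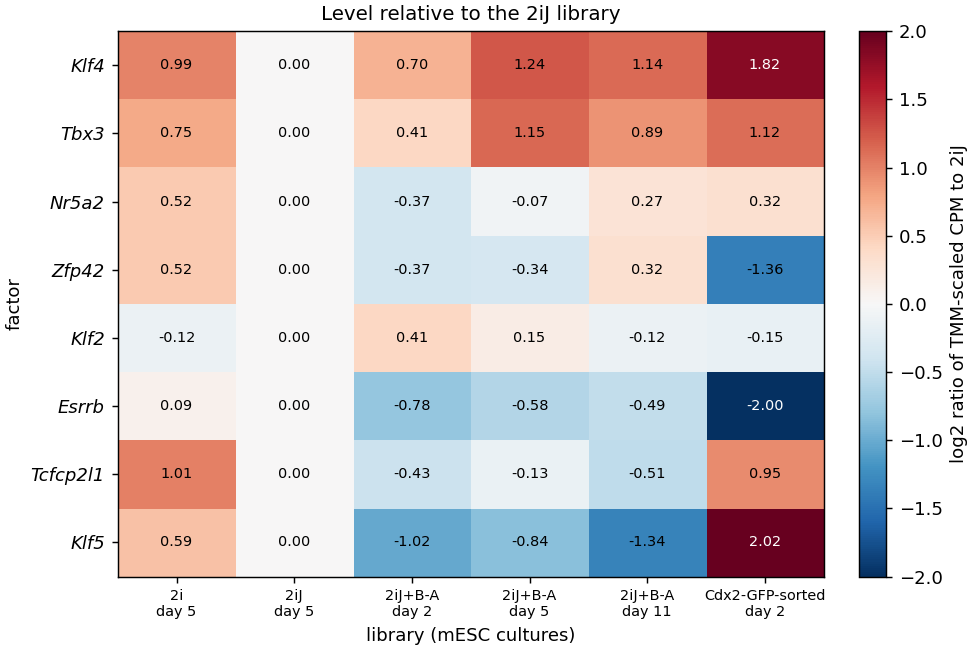
Difference of each factor from the 2iJ library in log2 TMM-scaled CPM, for the 6 mESC libraries. Rows place Klf4 beside Tbx3, Nr5a2 beside Zfp42 and Tcfcp2l1 beside Klf5, and are not otherwise ordered by likeness. Klf4 and Tbx3 are higher than in 2iJ in every other library, Klf5 is lower only in the 3 2iJ+B-A libraries, and the sorted library is furthest from 2iJ for Klf4, Klf5, Esrrb and Zfp42.

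Addition of the JAK inhibitor to 2i asks what the factors do when the LIF pathway is blocked. With 1 library on each side there is no test, and 1 log2 unit was used as the mark, which 7.28% of 16961 genes passed in either direction. Of the 8 factors, 7 were lower in 2iJ, where 47.5% of all genes were lower, and 1 passed the mark. This was Tcfcp2l1, lower by a log2 ratio of -1.01 (95% counting interval -1.05 to -0.98). Klf4 was next at -0.99 (-1.07 to -0.90) and Tbx3 followed at -0.75 (-0.81 to -0.69), while Klf5, Nr5a2 and Zfp42 lay between -0.59 and -0.52. Esrrb, at -0.09 (-0.13 to -0.05), and Klf2, at 0.12 (0.06 to 0.18), were almost level. The median of the members was -0.55, beside 0.02 for all genes. The intervals cover counting error only, and a difference between cultures of the same kind was not measured. Stat3 itself was at 27.1 CPM in 2i and 14.1 in 2iJ, and Socs3, the feedback inhibitor that STAT3 induces, at 2.31 and 1.21. Other genes of the pathway did not fall alike. Il6st was at 88.1 CPM in 2i and 122 in 2iJ, Lifr at 68.0 and 69.5, and Jak1 at 53.4 and 49.5.

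The 2iJ+B-A libraries were then compared with 2i and 2iJ together, which both lack BMP4 and the ALK5 inhibitor. The 2i library lacks the JAK inhibitor too, and days 2, 5 and 11 were set against day 5. JAK inhibition and time thus differ as well, and their parts cannot be told apart here. The test was edgeR's quasi-likelihood test on the 5 unsorted mESC libraries, 3 against 2, and the difference between 2i and 2iJ counts as spread in it. Klf5 and Esrrb fell, and no member rose. That is 2 of the 8, where 5.12% of 16235 genes were called in either direction and 2.64% were called lower. Klf5 averaged 18.9 ± 3.45 CPM over the 2iJ+B-A days (SD, n = 3) against 56.0 and 37.5, a log2 fold change of -1.39 (SE 0.23, edgeR adjusted p = 0.0257). Esrrb had 274 ± 29.9 CPM against 423 and 400.0, a log2 fold change of -0.67 (SE 0.13, edgeR adjusted p = 0.0357). Tcfcp2l1 did not pass, with -0.95 (SE 0.28, edgeR adjusted p = 0.0954), but had an adjusted p of 0.0182 by DESeq2 and 0.0165 in edgeR with no filter on low counts. Its value rested on 2i, being -0.35 without that library and -1.38 without 2iJ.

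The other 5 factors had log2 fold changes between -0.38 (Zfp42) and 0.46 (Klf4), with SEs of 0.17 to 0.30 and edgeR adjusted p-values of 0.395 to 0.497. Of these, 4 depended on which control library was kept. Klf4 was at 0.035 without 2iJ and 1.04 without 2i, Tbx3 at 0.079 and 0.85, Nr5a2 at -0.57 and -0.037, and Zfp42 at -0.63 and -0.099. The median of the 8 was -0.35 and that of all genes 0.01. Klf5 and Esrrb stayed called without day 2 or day 11 of 2iJ+B-A (edgeR adjusted p = 0.0176 and 0.0159, and 0.0311 and 0.0372) and were not called without any 1 of the other 3 libraries. Without 2i their edgeR adjusted p-values were 0.322 and 0.356 (0 genes called among all), without 2iJ 0.112 and 0.204 (9 genes) and without day 5 of 2iJ+B-A 0.0717 and 0.126 (86 genes), while the log2 fold changes stayed within -1.67 to -1.06 for Klf5 and -0.73 to -0.58 for Esrrb.

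TE markers also differed in 2iJ+B-A against 2i and 2iJ. Of 8 listed, 5 rose in 2iJ+B-A in the same test (Cdx2, Gata3, Krt7, Krt8 and Krt18), where 5.12% of all genes were called. The 8 summed to 536 to 1310 CPM, against 89.7 in 2i and 119.6 in 2iJ, with Elf5 under 1 CPM throughout. Krt8 and Krt18 were the largest parts of the 2iJ+B-A sums, at 198 to 594 and 160.5 to 448 CPM. The same sum was 600.5 and 346 CPM in Meso on days 3 and 4, so it is not particular to these cultures. Summed primitive endoderm markers were 11.1, 33.1 and 137 CPM on days 2, 5 and 11, against 3.87 and 8.17, and 0 of 5 passed. Their part in the levels of the naive factors was not tested.

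The comparison with 2iJ alone differs in BMP4 and the ALK5 inhibitor, but sets days 2, 5 and 11 against 1 library of day 5, so time and the single library differ as well. Here 0 of the 8 factors passed in edgeR, nor did any of 16961 genes (0% called). At an unadjusted p under 0.05 there were 1290 genes, Klf4 and Tbx3 among them, and DESeq2 called 305, none of them a member. Klf4 averaged 127 ± 26.0 CPM over the 2iJ+B-A days (SD, n = 3) beside 58.6 in 2iJ, a log2 fold change of 1.04 (SE 0.40, edgeR adjusted p = 0.622). Tbx3 had 291 ± 77.5 CPM and 154, with 0.85 (SE 0.34, edgeR adjusted p = 0.634). Klf5 and Esrrb had -1.06 (SE 0.91) and -0.61 (SE 0.26), and the other 4 lay between -0.35 and 0.16. The SE of Klf5 includes the distance between the Meso days in this joint fit and was 0.24 with Meso left out, where its edgeR adjusted p was 0.218. Leaving out Meso also lowered the SE of Klf4 to 0.26, that of Tcfcp2l1 from 0.46 to 0.21 and that of Esrrb to 0.18. The SE of Klf2 went from 0.24 to 0.25. On day 5, the day of the 2iJ library, 2 of the 8 passed 1 log2 unit, where 19.4% of genes did. They were Klf4 at 1.24 (counting interval 1.16 to 1.32) and Tbx3 at 1.15 (1.10 to 1.21), and Klf5 stood at -0.84 (-0.98 to -0.70).

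**Figure D3:**
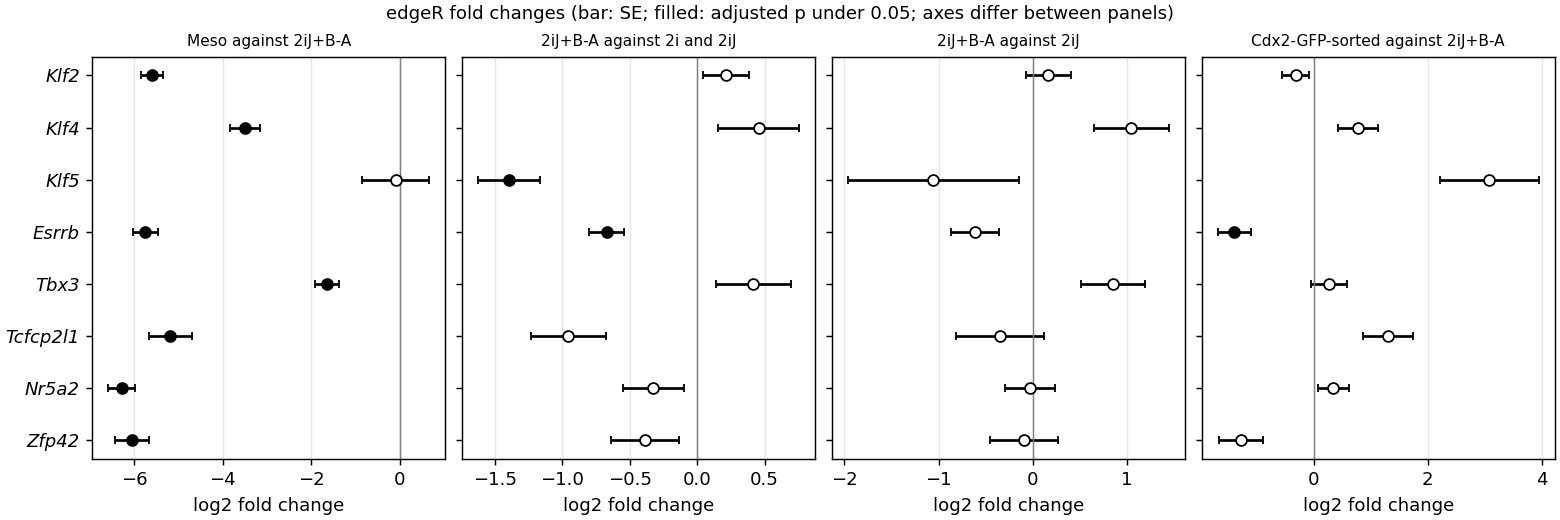
Log2 fold change of each factor in 4 comparisons from edgeR (points; bars, SE), filled where the adjusted p-value was under 0.05; each panel has its own axis. Filled points are 7 in Meso against 2iJ+B-A, Klf5 and Esrrb in 2iJ+B-A against 2i and 2iJ, none against 2iJ alone, and Esrrb in the sorted cells.

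The members' profiles over the 5 unsorted mESC libraries were compared with each other. The likeness measure was the root mean square difference of log2 CPM profiles, each centred on its own mean, over 5 libraries. Klf4 and Tbx3 were the nearest of the 28 pairs at 0.11 log2 units, followed by Nr5a2 and Zfp42 at 0.11. Esrrb lay at 0.25 from Nr5a2 and 0.27 from Zfp42, and Klf2 was nearest to Tbx3, at 0.47. Klf5 was nearest to Tcfcp2l1 at 0.29 and farthest from Klf4 at 0.97, the largest distance of all, against a median of 0.50. The 5 points share libraries and the distances are a description. Over all 8 libraries, where the fall in Meso dominates, the nearest pair was Esrrb and Zfp42 at 0.24, and the 3 largest distances, 2.31 to 2.35, were those of Klf5 to Esrrb, Nr5a2 and Zfp42.

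Change with time was tested as a slope on log2 day over days 2, 5 and 11 of 2iJ+B-A. None of the 8 passed in edgeR (0% of 16961 genes called), 1004 genes having an unadjusted p under 0.05 and DESeq2 calling 115, none of them a member. The values with the smallest SE were those of Klf2, at -0.22 log2 units per doubling of the day (SE 0.08, edgeR adjusted p = 0.837), and Nr5a2, at 0.26 (SE 0.09, edgeR adjusted p = 0.829). Klf2 was highest on day 2 and lowest on day 11, and Nr5a2 the other way round. Zfp42 had 0.27 (SE 0.14), with 468 and 497 CPM on days 2 and 5 and 765 on day 11. The slopes of the other 5 factors lay between -0.12 and 0.21, with SEs of 0.13 to 0.55.

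The sorted library addresses which of the factors differ in the cells of 2iJ+B-A that had switched on Cdx2. The sorted arm is 1 library with no spread of its own, and each p-value for it takes the spread from the 2iJ+B-A and Meso days, so that it compares this library and not the condition. In the joint edgeR fit against the 3 unsorted 2iJ+B-A libraries, Esrrb was called lower in it, with a log2 fold change of -1.39 (SE 0.29, edgeR adjusted p = 0.0478). It was 1 of the 8, where 5.42% of 16961 genes were called and 2.08% were called lower. Klf5 had 3.08 (SE 0.86, edgeR adjusted p = 0.0859), Tcfcp2l1 1.30 (SE 0.44, adjusted p = 0.127) and Zfp42 -1.27 (SE 0.39, adjusted p = 0.103) in the same edgeR test. Klf2, Klf4, Tbx3 and Nr5a2 lay between -0.31 and 0.78, with edgeR adjusted p-values of 0.218 to 0.617.

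These calls turned on which libraries set the spread. With the 2 Meso libraries left out, Klf5 (edgeR adjusted p = 0.00311) and Tcfcp2l1 (0.0169) passed as higher beside Esrrb (0.0164) as lower. Their log2 fold changes were 3.08, 1.31 and -1.38. All genes called were then 2033, against 919 in the joint fit of 8 libraries. Without any 1 of the 2iJ+B-A libraries Esrrb did not pass (edgeR adjusted p = 0.0876 without day 2, 0.154 without day 5 and 0.118 without day 11), and all genes called fell to between 37 and 117. Against the unsorted library of the same day, without a test, 4 of the 8 passed 1 log2 unit, where 34.9% of genes did. They were Klf5 at 3.04 (counting interval 2.90 to 3.18), Tcfcp2l1 at 1.39 (1.34 to 1.43), Klf4 at 1.12 (1.05 to 1.20) and Esrrb at -1.22 (-1.29 to -1.15).

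The sorted cells held 4009 CPM of TE markers in sum, against 536 in the unsorted cells of that day. Krt8 and Krt18 were 1731 and 1595 CPM of the sum in the sorted cells. In the joint edgeR fit 3 of 8 such markers were called higher (Cdx2, Krt18 and Tead4), where 5.42% of all genes were called. Sox2 was called lower there as the single one of 14 other naive network genes to pass, and Pou5f1 was at 957 CPM beside 866. Socs3 was at 40.7 CPM in this 1 library and at 3.06 to 3.82 in 2iJ+B-A (log2 fold change 3.62, SE 0.45, edgeR adjusted p = 0.0167), while the receptor genes Lifr and Il6st stood at 15.9 and 23.1 CPM against 64.8 to 104 and 99.9 to 122. The share of markers, cell line and library in the values of Klf5, Tcfcp2l1 and Esrrb was not tested.

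The make-up of the 3 KLF transcripts differed between cultures. Per kilobase, Klf2 was 54.8% of their sum in 2i, 69.4% in 2iJ and 62.8% to 74.8% in 2iJ+B-A, but 35.0% in the sorted cells. Klf5 was 20.9% in 2i, 16.3% in 2iJ and 6.31% to 7.56% in 2iJ+B-A, beside 36.8% in the sorted cells. Klf4 went from 24.2% in 2i to 14.3% in 2iJ and 18.7%, 28.2% and 30.9% over days 2, 5 and 11 of 2iJ+B-A. The sum itself was 134 to 171 CPM per kilobase in the 5 unsorted mESC libraries and 242 in the sorted cells.

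**Figure D4:**
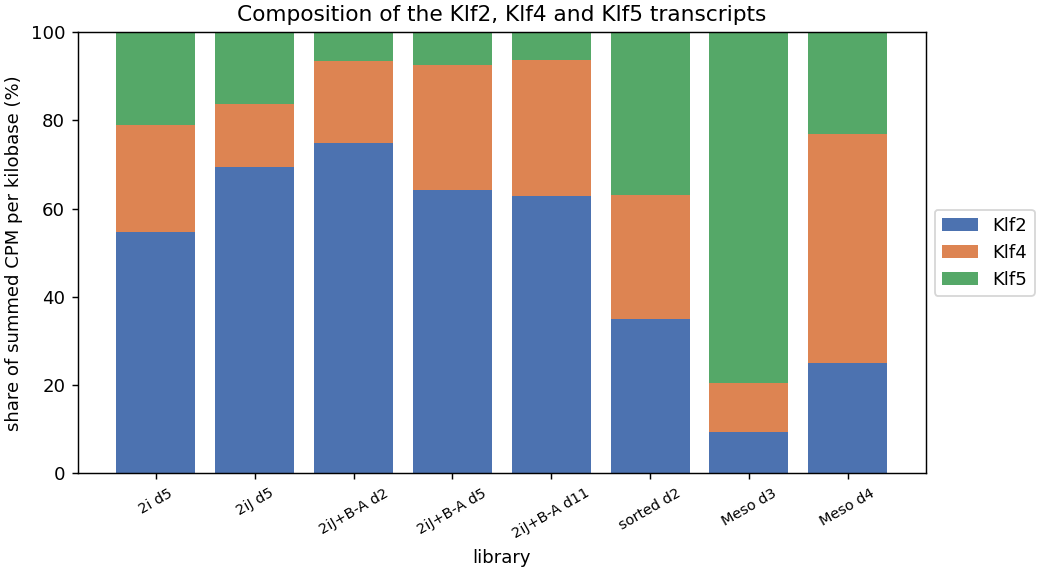
Share of Klf2, Klf4 and Klf5 in their summed CPM per kilobase (percent, bars to 100%) in each library. Klf2 is the largest part in the 5 unsorted mESC libraries, the 3 are near equal in the sorted cells, and Klf5 makes up 79.5% in Meso on day 3 and 23.2% on day 4.

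Mesoderm progenitors were compared with 2iJ+B-A. The 2 groups differ in medium and added agents as well as in cell type, and these cannot be told apart. In Meso, 7 of the 8 factors fell, and Klf5 did not pass, where 27.0% of 16961 genes were called and 15.5% were called lower. The log2 fold changes were -6.29 for Nr5a2 (SE 0.30), -6.05 for Zfp42 (SE 0.38), -5.75 for Esrrb (SE 0.28), -5.60 for Klf2 (SE 0.25) and -5.18 for Tcfcp2l1 (SE 0.48), with edgeR adjusted p-values of 0.000556 to 0.00212. Klf4 had -3.50 (SE 0.34, edgeR adjusted p = 0.00243). Tbx3 had the smallest of these changes, -1.64 (SE 0.27, edgeR adjusted p = 0.00929), and kept 92.0 ± 20.0 CPM (SD, n = 2) against 291 ± 77.5 (SD, n = 3). The median of the members was -5.39, beside -0.03 for all genes. The same 7 members were called without any 1 library of the 2 groups and without the sorted library. All 7 of the mesoderm markers that were tested rose.

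Klf5 had a log2 fold change of -0.09 (SE 0.76, edgeR adjusted p = 0.94), and its Meso libraries, 1 above and 1 below all of 2iJ+B-A, stood 8.87-fold apart. With day 4 as the single Meso library the log2 fold change was -2.32 (edgeR adjusted p = 0.00552), and with day 3 it was 0.80 (edgeR adjusted p = 0.0705). In these fits the lone Meso library is assumed to vary as the 2iJ+B-A libraries do. Between the Meso days, which have no test, Klf5 at -3.10 (counting interval -3.38 to -2.81) and Tcfcp2l1 at -1.41 (-1.70 to -1.12) passed 1 log2 unit, 2 of the 8 where 20.9% of genes did. Klf4 was at 0.88 (0.65 to 1.10) and Tbx3 at 0.47 (0.40 to 0.55), so these 2 were higher on day 4. Klf2 and Nr5a2 had intervals that include 0, at -0.28 to 0.42 and -0.73 to 0.50. Pou5f1 and Nanog went from 701 and 153 CPM on day 3 to 35.4 and 9.72 on day 4, and the part of remaining pluripotent cells in the day 3 values was not tested.

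Other genes of the network, listed with earlier results known, were followed beside the members. Of 14, 9 fell in Meso and 0 rose, with a median log2 fold change of -3.60. Among those that fell were Sox2 (-4.96), Dppa5a (-4.89), Nr0b1 (-6.60) and Tet2 (-3.48). Of all genes tested there, 27.0% were called in either direction and 15.5% were called lower, with a median of -0.03. In 2iJ+B-A against 2i and 2iJ, 3 of 14 fell, where 5.12% of all genes were called in either direction and 2.64% lower. Those that fell were Nanog (-0.78, SE 0.16, edgeR adjusted p = 0.0391), Dppa4 (-0.85, SE 0.17, 0.0414) and Dppa5a (-0.78, SE 0.16, 0.0391). The median of the list was -0.28, beside 0.01 for all genes. Of the inputs, the BMP targets Id1, Id2 and Id3 rose in that edgeR comparison by log2 fold changes of 2.48 to 3.69, 3 of 5 in their list. Of 5 LIF-STAT3 genes 0 passed there (Lifr, Il6st, Jak1, Stat3 and Socs3), nor did any of 5 ERK feedback genes, and of 5 Wnt-TCF genes Tcf7 fell (-0.75, SE 0.15, edgeR adjusted p = 0.0411). In Meso, 2 of 5 ERK feedback genes rose, Dusp6 (3.86) and Spry2 (2.88), Etv5 fell (-1.42), and Stat3 rose (1.53). Of the 5 Wnt-TCF genes there, Lef1 (3.25) and Tcf7 (1.25) rose and Tcf7l1 (-1.04), which encodes TCF3, fell. None of the 5 BMP genes passed.

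Of 5 formative genes, which mark the step after naive pluripotency, Dnmt3a fell in 2iJ+B-A against 2i and 2iJ (-1.27, SE 0.17, edgeR adjusted p = 0.0147) and none rose. Of all genes, 5.12% were called in that comparison and 2.64% were called lower. In Meso, Fgf5 (6.95) and Dnmt3b (1.53) rose, where 27.0% of all genes were called in either direction. Fgf5 was at 38.8 CPM on day 3 and 0.94 on day 4, and under 1 CPM in all 6 mESC libraries.

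Paralogs of the members did not follow them as a group. Of 14 other KLF genes tested in Meso against 2iJ+B-A, Klf9 (-3.05), Klf8 (-1.89) and Klf3 (-1.19) fell and Klf12 (2.78) rose. Of all genes, 27.0% were called there and 15.5% were called lower, so these calls are near the share of all genes. Klf6, a widely expressed KLF, rose in 2iJ+B-A against 2i and 2iJ, with 134 to 194 CPM against 60.5 and 63.1 (log2 fold change 1.35, SE 0.18, edgeR adjusted p = 0.016). Klf17, a marker of naive pluripotency in human cells, was at 5.20 CPM in the sorted cells and at 0 to 0.36 in the other 7 libraries, and was called higher in that single library, whose spread comes from the other groups (edgeR adjusted p = 0.033). On the CPM scale, which is not per length, Klf9 was the highest KLF paralog in the 5 unsorted mESC libraries at 168 to 331. For the remaining families none passed in any comparison. Their highest members on that scale were Esrra at 16.1 to 59.4 CPM, Ubp1 at 99.3 to 164 and Yy1 at 115 to 148, Nr5a1 was at 1.26 CPM or less, and Yy2 was listed at 0 in all 8. Tbx2 and Tbx5 were under 4 CPM in all libraries but Meso day 4, where they were at 37.1 and 18.5.

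The genes with the most similar profiles were sought among 9272 other protein-coding genes of at least 10 CPM on average. Over the 8 libraries the nearest to the members' mean profile was Tex19.1, at 0.23 log2 units, followed by Inpp5d (0.33), Rusc2 (0.34), Rnf17 (0.38) and Zfp296 (0.38). The nearest to single members were Mageb16 for Klf2 (0.25), Tet2 for Klf4 (0.25), Ppp2r2c for Klf5 (0.27), Cd37 for Esrrb (0.28), Ino80d for Tbx3 (0.22), Fbxo15 for Tcfcp2l1 (0.40), Mylpf for Nr5a2 (0.29) and H2-M5 for Zfp42 (0.28). Ppp2r2c, a regulatory subunit of a protein phosphatase, had 89.1 CPM in the sorted cells, 25.6 in 2i, 13.9 in 2iJ, 8.19 to 11.7 in 2iJ+B-A, and 10.1 and 1.61 in Meso on days 3 and 4, so its groups ranked as those of Klf5 did apart from Meso day 3. Tet2, a DNA demethylating enzyme, was lowest in 2iJ among the mESC libraries at 84.6 CPM, as Klf4 was, and had 188 in the sorted cells.

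Over the 5 unsorted mESC libraries alone, Nab1 was the nearest gene to both Klf4 (0.11) and Tbx3 (0.07), and Ttll6 the second for both (0.14 and 0.11). Eno3 was nearest to Klf5 (0.09), and Ppp2r2c, the nearest to Klf5 over all 8 libraries, was here nearest to Tcfcp2l1 (0.13). Ppa1 was nearest to Esrrb (0.03), Cdc37l1 to Nr5a2 (0.02), Adprhl2 to Klf2 (0.03) and Atp1b1 to Zfp42 (0.07), and Prkar2a to the mean of the 8 (0.06). With so few libraries a near match is a description of these values.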

How the data were processed

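The authors made strand-specific libraries from poly-A RNA, demultiplexed, trimmed (cutadapt) and aligned read pairs to NCBIM37 with STAR 2.4.2a, as the submitters' processing notes and the methods give them. The deposited values are raw counts per gene from STAR, unstranded and for each strand. The study adjusted its own expression values for a difference between experiments, an adjustment that is not in these counts. Sample codes in the labels follow the groups, so a batch that follows them cannot be told apart from the groups. The annotation release that the authors counted with is not given in the sources used here. Per the labels, the frozen pellets of an analysis were extracted together.

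Reverse-strand counts were used, and 37205 of 37620 gene IDs were named by GENCODE vM1. The share of strand-assigned counts on the wrong strand was 5.03% to 6.47% per library, and 0% to 6.48% at the members. Genes that reached 10 counts in 2 or more libraries were tested with edgeR 4.0.16 (R 4.3.3; quasi-likelihood test, TMM scaling, Benjamini-Hochberg adjustment over all genes tested, threshold 0.05), and SE is the log2 fold change over the root of F. Comparisons came from 1 fit of 8 libraries with a coefficient for each of 5 groups (3 residual degrees of freedom), apart from 2iJ+B-A against 2i and 2iJ (5 libraries, 3 residual degrees of freedom) and the slope on log2 day (2). They share the 2iJ+B-A libraries. The joint fit had a common biological coefficient of variation of 0.363 and the fit of 5 libraries 0.257. Single-library pairs used log2 CPM with TMM scaling and a prior count of 2, with no test. CPM without TMM carries 95% Wilson intervals, which cover counting error only. Only the fits of Meso against 2iJ+B-A and of 2iJ+B-A against 2i and 2iJ were run on simulated counts. These had less spread than the data and large changes in well-counted genes. That run therefore does not cover small changes, the comparisons with a single-library group or the slope. Alternatives were DESeq2 1.42.0, RLE scaling, no filter, unstranded counts and left-out libraries. The factors were named in every comparison, paralogs where called or highest in their family, nearest genes by rank, and listed genes where a result turned on them. Ppp2r2c and Tet2 were given in full after their values were seen. The members and the gene lists were chosen with earlier results of these data known. Pou3f1 and Sox1 were listed but left out of the counts, having no unique match.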

Additional observations from a re-analysis of the deposited data

How the results depend on the processing

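The number of factors called in Meso against 2iJ+B-A was 7 in every alternative but 1, the fit without Meso day 3, where it was 8 (7 to 8 over 5 fits that left out a library). Klf5 alone turned direction, to 0.80 without Meso day 4 and 0.06 without 2iJ+B-A day 5, and had -2.32 without Meso day 3. All genes called there ranged from 2019 to 4538 with a library left out. In 2iJ+B-A against 2iJ, 0 members were called under each setting run, and DESeq2 called 305 genes among all. With a 2iJ+B-A library left out, Nr5a2 ranged from -0.21 to 0.11 (above 0 without day 2), and Zfp42 from -0.36 to 0.026 (above 0 without day 2 and, at 0.015, without day 5). In 2iJ+B-A against 2i and 2iJ, members called were 0 to 2 and all genes called 0 to 2632 with a library left out, 1757 with no filter and 2235 by DESeq2. For the sorted cells, members called were 2 with no filter, 3 by DESeq2, 3 without Meso, and 0 at day 2 from a fit with a slope or without any 1 2iJ+B-A library. All genes called there were 1390, 2697, 2033 and 27 under those 4 settings, and 37 to 117 with a library left out. For the slope on day, 0 members were called in each, and all genes called were 2 with no filter, 115 by DESeq2 and 379 to 469 without a Meso library. RLE scaling and unstranded counts changed no call of a member, and neither did leaving out the sorted library, an alternative added after seeing the data. The causes of these shifts were not tested. No paired analysis was possible because the columns carry no replicate number in the labels. Depth limits chiefly Nr5a2 in Meso, at 40 and 45 counts.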
